A study of Mus musculus with 3 samples.

Results

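The spliceosome and the hnRNP proteins act on nearly every transcript of a cell, and the contacts described here are those made by the promoters of their genes in mouse erythroid cells. A promoter was counted when its name held a gene symbol starting with Sf3a, Sf3b, Srsf, Snrp, Snrnp, Prpf, Hnrnp or U2af, or with Lsm and a digit. Selection was by symbol alone, so a member, such as an Lsm gene, need not act in splicing. This rule used no measured value and found 86 of the 7176 captured promoter fragments, or viewpoints, that had a unique name and contacts. They carried 83 genes on 18 chromosomes, and 23 of the fragments were shared with a gene outside the rule or with a second gene. The data are 3 NuTi Capture-C libraries of ter119+ cells from the spleens of mice made anaemic with phenylhydrazine, first-generation hybrids (C57BL/6-cross-CBA/J), which form 1 group with no other condition. The hybrid carries alleles of both strains, which the values do not separate, and the age of the mice is not given in the sources used here. The paper names C57BL/6 mice or these hybrids as the source of its mouse erythroid cells, and does not say which gave these libraries. In this assay chromatin is cut with DpnII and ligated, and intact nuclei are isolated after ligation. Their DNA is enriched with probes for chosen fragments, and each ligation event joins a viewpoint to a contacted fragment. The table holds DNA contacts and no expression, so the cell type could not be checked against marker levels.

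Introns are removed by small nuclear ribonucleoproteins (snRNPs), each built on a ring of Sm or Lsm proteins. The U1 snRNP binds the start of an intron and the U2 snRNP, with U2AF and the SF3A and SF3B complexes, binds its branch point, after which the U4/U6.U5 tri-snRNP joins and the Prpf factors drive the changes that lead to catalysis. A separate minor spliceosome removes a rare class of introns. SR proteins mostly favour the use of nearby splice sites, and hnRNP proteins coat the transcript and often oppose that use. Promoters of such broadly used genes are usually rich in CpG, and distant contacts of a promoter are measured against the fall of contact frequency with distance.

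The sequences that matter here are the promoters and fragments at both ends of the contacts described next. The promoters of Prpf4, Alad and Srsf4 are shown since contacts of the Prpf4 and Srsf4 viewpoints stood out. They are RefSeq promoters of build GRCm38.p6, 250 bases before to 50 after the start, 5′ to 3′ on the strand of the gene, with matches to 8 searched motifs in capitals. Prpf4 is at chr4:62408533-62408832 on the plus strand, Alad at chr4:62520014-62520313 on the minus strand and Srsf4 at chr4:131873387-131873686 on the plus strand.
Prpf4: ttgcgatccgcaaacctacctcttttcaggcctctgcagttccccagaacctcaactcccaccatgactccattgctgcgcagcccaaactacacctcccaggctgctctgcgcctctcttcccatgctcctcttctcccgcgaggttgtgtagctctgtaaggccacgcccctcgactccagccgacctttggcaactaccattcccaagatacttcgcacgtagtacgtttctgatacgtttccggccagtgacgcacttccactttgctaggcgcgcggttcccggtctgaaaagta
Alad: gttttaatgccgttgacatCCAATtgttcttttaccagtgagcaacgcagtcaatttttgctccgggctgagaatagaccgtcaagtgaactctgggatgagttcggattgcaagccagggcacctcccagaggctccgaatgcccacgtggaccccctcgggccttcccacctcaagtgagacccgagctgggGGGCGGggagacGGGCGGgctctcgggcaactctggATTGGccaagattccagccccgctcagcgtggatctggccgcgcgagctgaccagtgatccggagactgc
Srsf4: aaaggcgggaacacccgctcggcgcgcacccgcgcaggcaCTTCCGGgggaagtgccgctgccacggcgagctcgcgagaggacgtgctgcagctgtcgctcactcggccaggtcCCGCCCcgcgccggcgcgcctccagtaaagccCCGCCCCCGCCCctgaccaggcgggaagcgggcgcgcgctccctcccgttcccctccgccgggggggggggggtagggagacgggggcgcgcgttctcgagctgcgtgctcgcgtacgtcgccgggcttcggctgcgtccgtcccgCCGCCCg
The Lsm6 viewpoint, the shortest captured fragment among the members with enough events, and 3 contacted fragments are printed next from the plus strand of mm9, with the DpnII site GATC in capitals. They are chr8:81344957-81345082 for Lsm6, chr4:62180537-62180629 for the fragment in the Alad window contacted by Prpf4, chr13:58622139-58622410 for Hnrnpa0 and chr7:4097772-4097999 for U2af2. The contacted ones were those of at most 300 bases with the most events, and at least 5, in a called window.
Lsm6 viewpoint: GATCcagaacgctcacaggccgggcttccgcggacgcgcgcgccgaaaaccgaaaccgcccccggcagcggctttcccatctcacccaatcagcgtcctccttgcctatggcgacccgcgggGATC
Prpf4 contact: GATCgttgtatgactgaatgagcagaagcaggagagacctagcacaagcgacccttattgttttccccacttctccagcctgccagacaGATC
Hnrnpa0 contact: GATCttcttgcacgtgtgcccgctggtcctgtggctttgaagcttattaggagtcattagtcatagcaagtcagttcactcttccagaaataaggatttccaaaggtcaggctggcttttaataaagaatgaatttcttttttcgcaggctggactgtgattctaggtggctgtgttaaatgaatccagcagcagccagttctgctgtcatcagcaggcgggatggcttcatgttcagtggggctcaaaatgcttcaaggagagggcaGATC
U2af2 contact: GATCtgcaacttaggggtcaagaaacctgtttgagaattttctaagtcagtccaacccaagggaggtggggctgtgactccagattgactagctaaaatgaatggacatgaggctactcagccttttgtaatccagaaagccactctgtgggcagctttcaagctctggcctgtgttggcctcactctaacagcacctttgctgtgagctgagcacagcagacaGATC
The 3 contacts had 7, 5 and 6 events. None of these 4 fragments held AGATAA, the motif of GATA factors, on either strand. Among tested fragments of like length it was present in 7.36% for Lsm6, 5.43% for Prpf4, 16.6% for Hnrnpa0 and 14.1% for U2af2.

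Motif letters were searched on both strands in the RefSeq promoters of 70 of the 83 genes, the others having no entry. GGGCGG, the motif of SP and KLF factors, was in 50 of 70 promoters (71.4%), against 67.8% of 6323 promoters of captured genes and 35.9% of all 27025 promoters. CCGGAAG, the ETS motif, was in 21 of 70 (30%), against 24.5% of captured and 9.12% of all promoters. TGACGT, part of the CREB motif, was in 16 (22.9%), against 15% and 7.64%. CCAAT was in 33 (47.1%), against 41.7% and 37.9%. AGATAA was in 5 (7.14%), against 5.69% and 11.4%, and the 5 were Hnrnpf, Hnrnph2, Lsm5, Sf3b3 and Snrpa1. GCGCATG, the NRF1 motif, was in 7 (10%), against 9.13% and 4.04%. AAGATGG, of YY1, was in 4 (5.71%), against 9.19% and 6.48%, and TATAAA was in 7 (10%), against 5.63% and 14.2%. These are counts of letters and no test was made. On the captured fragments themselves the CpG ratio, observed over expected from base content, had a median of 0.864 in the members and 0.753 in all viewpoints, while median GC content was 59% in both.

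The members were captured about as deeply as other promoters. Their 660345 cis events came to 143463, 259130 and 257752 in libraries a, b and c, and the median per member was 1389.5, 2433 and 2445 events, against 1377, 2561.5 and 2532 over all viewpoints. In the sum of libraries the median was 6265.5 against 6481.5. Libraries b and c differed by no more than sampling noise up to 100 kb, with a chi-square per window of 0.953, against 1.06 for a and b and 1.09 for a and c. From 100 kb to 1 Mb, where most of the called windows below lie, b and c gave 1.05, against 1.07 and 1.06 for the other pairs. These values were not tested against each other and cannot show whether b and c are independent. Depth was close in b and c while a varied beside them. Libraries a, b and c had 302, 1713 and 1662 events at Prpf3 and 1809, 2496 and 2478 at Lsm4. The paper describes 3 independent 3C libraries, and each was counted separately, with n = 3. If b and c are not independent, an SD with n = 3 overstates the replication. At least 1000 events were held by 75 members, and only these entered the comparisons below as viewpoints, as did 6718 viewpoints in all. The other 11 were Sf3b4, Snrpa1, Lsm8, Hnrnpll, Prpf18, Srsf2, Srsf11, Snrpg, Hnrnpa3, Lsm1 and Sf3a1. Srsf2, the SR protein gene often mutated in blood cancers, had 110, 163 and 157 events. The deepest was Hnrnph2 with Gla on chromosome X, with 18440, 34701 and 34622 events, and the shallowest of the 75 was Lsm14a with 273, 401 and 400. These depths set the counting error of a viewpoint. They also differed between viewpoints and between libraries by more than counting error, and the cause was not tested.

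Contacts above expectation were sought in windows of 5 kb from 2.5 kb to 1 Mb on either side. Expected events came from the mean share of each distance over all viewpoints and from the total of the viewpoint, and the test was a negative binomial upper tail with Benjamini-Hochberg adjustment over all 2631420 windows. A window was called at an adjusted p under 0.05 when it also exceeded expectation in each library. Of 29354 windows of the members, 11 were called (0.0375%), against 0.0316% of all windows. These lay in 10 of 75 members (13.3%), where 8.05% of all viewpoints had a call. For viewpoints of other splicing genes, a list outside the rule, it was 5 of 70 (7.14%). An unadjusted p under 0.05 was found for 4.9% of windows of the members and 4.63% of all windows, so the members' share was near the background. The order was not stable for windows. The members' share of called windows fell below that of all windows in 6 of 10 other settings. The share of members with a call fell below that of all viewpoints in 2 of 10. With expectation from distance alone, 1 of these 2, it was 4% against 4.53%. None of the 11 windows shared a 30-base word with its viewpoint, as 14.6% of all called windows did.

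The largest count in a called window belonged to Prpf4, a tri-snRNP protein gene whose viewpoint, chr4:62069571-62069952, it shares with Cdc26, a subunit of the anaphase-promoting complex. A window 110 kb away, chr4:62177261-62182260, held 26, 32 and 38 events in libraries a, b and c, where 15.1 were expected in the sum. The ratio to expectation was 6.4 ± 0.6 (SD, n = 3), and the adjusted p was 0.0134 by the negative binomial test. Ratios in the 2 nearer windows were 3.59 and 5.42 and in the 2 farther ones 3.98 and 2.65. All 9 fragments of the window had events, and their lengths ran from 28 to 1088 bases. The window holds the start of Alad, which encodes the second enzyme of heme synthesis, and its 2 viewpoints. From Prpf4, the flanks of Alad_a had 7 events against 1.68 and those of Alad_b 10 against 3.35. These ratios, 4.18 and 2.98, were below the 6.37 of the window in the sum. In windows of 2.5 kb the called one was at 109 kb, with 62 events against 8.38. The Alad viewpoints lie at 111 and 112 kb, so the strongest signal was not at the Alad start. From the other end, the flanks of the Prpf4 viewpoint had 24 events for the Alad_a viewpoint where 7.5 were expected, and 3 for Alad_b where 1.91 were expected. The nearby viewpoint of Pole3, a DNA polymerase subunit gene, had 27 events at its flanks from Prpf4 against 6.21, and 14 against 3.95 in reverse.

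Srsf4, an SR protein gene at chr4:131429230-131429762, contacted chr4:131631996-131636995, 205 kb away. Events there were 15, 26 and 19 in libraries a, b and c, against 8.11 expected in the sum. The ratio was 7.49 ± 1.31 (SD, n = 3) and the adjusted p 0.0215 in the negative binomial model. The higher-coordinate side, where the window lies, held 79.8% of the events of Srsf4 from 10 kb to 1 Mb. Expectation took no account of side, so the ratio includes this imbalance. The window stood above its neighbours, whose ratios were 2.22 and 1.69 on the near side and 3.28 and 3.9 on the far side. It lies 0.76 kb from the start of Epb41, named Epb4.1 in the annotation, which encodes protein 4.1 of the red cell skeleton. The flanks of the Epb41_b viewpoint itself had 13 events against 5.41 and those of Epb41_a 7 against 5.41. Larger ratios were found farther out, at the flanks of Ythdf2, which encodes a reader of methylated RNA, with 24 against 3.3 at 339 kb, and of Rcc1, with 10 against 2.23 at 473 kb. Ythdf2 and Rcc1 lie on the same side as the window. In reverse these had 6 against 1.47 and 2 against 1.08.

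Among hnRNP genes, which encode RNA-binding proteins of the nucleus, 3 of 20 members had a called window, where 8.05% of all viewpoints did. The 20 include 3 fragments of Hnrnpf, and the group was not tested against others. The viewpoint of Hnrnpdl and Enoph1, chr5:100467929-100468612, contacted chr5:100400771-100405770 with 10, 16 and 14 events against 7.22, a ratio of 5.57 ± 0.223 (SD, n = 3). Its adjusted p was 0.0379 by the negative binomial test. That window overlaps its relative Hnrnpd and ends 2.19 kb from the Hnrnpd start. Ratios were 4.86 and 4.04 in the 2 nearer windows and 4.36 and 3.41 in the 2 farther ones, so the stretch was broadly raised. Hnrnpa0, chr13:58229330-58230477, contacted chr13:58617403-58622402, 390 kb away, with 10, 18 and 13 events against 4.53, which are ratios of 8.94, 10.9 and 7.41 in libraries a, b and c. No gene overlaps that window, and the nearest coding start, of the nucleoside transporter gene Slc28a3, is 89.8 kb away. The neighbours of the window had ratios of 2.36 and 5.75 on the near side and 5.71 and 4.86 on the far side. The higher-coordinate side, where it lies, held 81% of the events of Hnrnpa0 from 10 kb to 1 Mb. Expectation took no account of side or of how often the contacted end was met from other viewpoints. The best window of Hnrnpk, chr13:58621003-58626002, overlapped the Hnrnpa0 window and was not called, with 52 events against 10.6. Hnrnpa1, chr15:103070660-103071136, contacted chr15:102348399-102353398, with 5, 11 and 6 events against 2.05 and ratios of 10.5, 14.1 and 7.58. The window, 720 kb away, holds the start of Tarbp2, a cofactor gene of Dicer, and its viewpoint. At fragments beside captured promoters 500 kb to 1 Mb away the ratio was 2.11 in all viewpoints. Only 29.2% of the tested fragments of Hnrnpa1 lay on its higher-coordinate side. Expectation was not rescaled to the number of fragments tested. Adjusted p were 0.0256 for the Hnrnpa0 window and 0.0441 for the Hnrnpa1 window by the negative binomial test.

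The other called windows held 40 events or fewer in the sum. Snrnp35, of the minor spliceosome, had 9, 15 and 16 events against 8.32 in chr5:124895778-124900777, in Setd8, a histone methyltransferase gene. This window had only 4 fragments, the longest of 2609 bases, and fragment length did not enter the expectation. The Snrnp35 call held in 1 of 8 other settings that tested it, Poisson counts aside, and in 0 of the 3 runs with a library left out. U2af2, which encodes the large subunit of U2AF, had 5, 11 and 10 events against 2.03 in chr7:4096367-4101366, 915 kb away. That window overlaps Leng8, Leng9 and the viewpoint of Leng9. The lower-coordinate side, where it lies, held 77.9% of the events of U2af2 from 10 kb to 1 Mb. The best window of Prpf31, chr7:4094004-4099003, overlapped the U2af2 window and was not called, with 17 events against 1.74. Expectation took no account of side or of the contacted end. Lsm6 had 3, 7 and 5 against 0.931 in chr8:82157519-82162518, 0.999 kb from the start of Otud4, a deubiquitinase gene, and the next window out had a ratio of 18. Adjusted p of the Snrnp35, U2af2 and Lsm6 windows were 0.0319, 0.0218 and 0.0122 in the negative binomial model. Members under 5000 events were tested in 8 settings and the others in 9. Of 9, the call of Prpf4 held in 8, those of Srsf4 and Hnrnpa0 in 6, that of U2af2 in 5 and that of Hnrnpa1 in 4. Of 8, that of Lsm6 held in 6, that of Hnrnpdl in 4 and that of Snrpf in 3. With a library left out, Prpf4 kept its call in 3 of 3 runs and Hnrnpdl in 0 of 3. The calls of Srsf4, Hnrnpa0, Lsm6 and Snrpf were lost without library b alone, that of Hnrnpa1 without a or b, and that of U2af2 without b or c.

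The Sm protein genes Snrpd1 and Snrpf had calls on 16 events or fewer. Snrpd1 had 4, 2 and 4 events against 0.21 in a window of 3 fragments 810 kb away, and 4, 1 and 4 against 0.35 at 835 kb, with no coding start within 337 kb of either. Within 2 windows of each, ratios were 0 or 1.43, and several windows there had too few fragments to be tested. Snrpf had 3, 12 and 1 events against 1.63 at chr10:93214894-93219893, so library b held most of them. Their adjusted p were 5.61e-05, 0.00753 and 0.0252 in the negative binomial model. With library b left out only 5 windows were called, in Srsf5, Prpf4 and Snrpd1, or 0.017% against 0.0225% of all windows, and 4% of members had a call against 5.92% of all viewpoints. Without library c 7 were called, or 0.0238% against 0.0217%. Both Snrpd1 calls held in 5 of 8 settings. The nearer was lost with windows of 10 kb or 2.5 kb and with expectation from distance alone, and the farther without library a, without library c and with expectation from distance alone. Single fragments gave 0 calls among 324774 tested for the members by the negative binomial test, against 0.000766% called over all, though 16833 had an unadjusted p under 0.05 (5.18% against 5.85% of all). When the dispersion was fitted without the highest 0.1% of fragments, 5 fragments of the members were called (0.00154%), below the 0.00346% of all fragments.

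**Figure D1:**
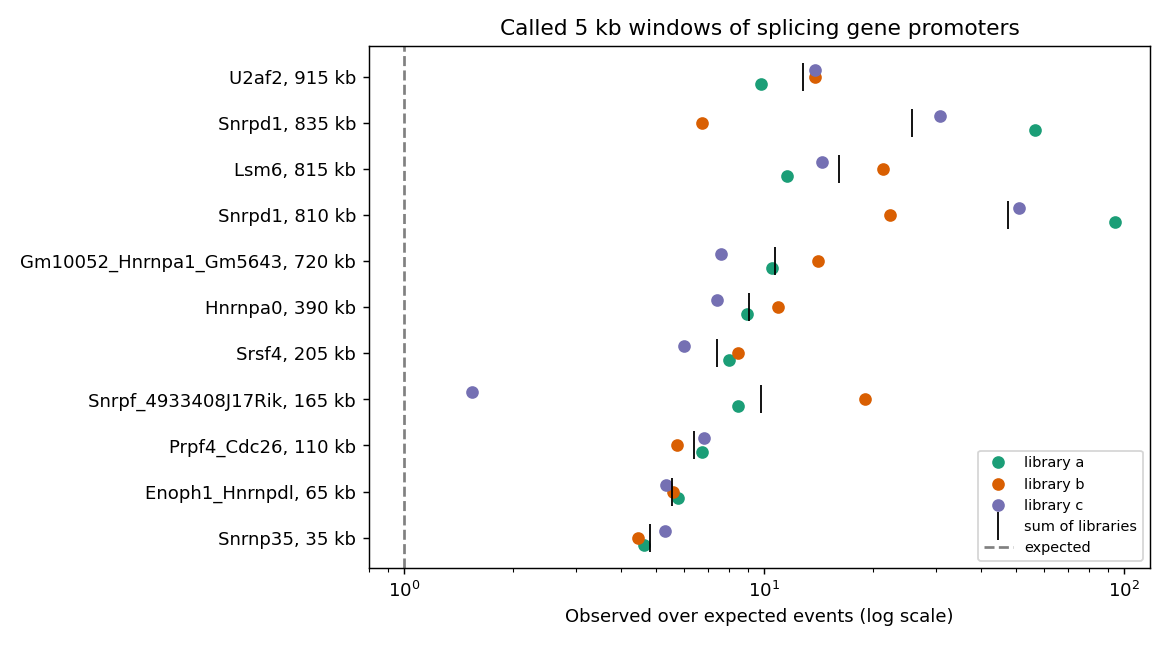
Observed over expected events on a log axis for the 11 called windows of 5 kb, named by viewpoint and distance, with a point for each library and a bar for the sum. The 3 libraries lie close together for Prpf4, Hnrnpdl and Snrnp35, while Snrpf runs from 1.54 in library c to 19.1 in library b. The calls of Hnrnpdl and Snrnp35 were lost with any library left out.

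Sf3b1 and U2af1, splicing factor genes often mutated in myeloid disease, had no called window. The best window of Sf3b1, 215 kb away and 3.09 kb from the start of Mars2, a mitochondrial methionyl-tRNA synthetase gene, had 14, 22 and 30 events against 14.9, and its adjusted p was 0.419 by the negative binomial test. The only tested fragment at the flank of the Mars2 viewpoint had 0 events against 1.52, and in reverse 23 were found against 3.29. That of U2af1, at 710 kb, had 3, 4 and 5 against 1.75, with an adjusted p of 0.449.

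Snrnp25, a minor spliceosome gene at chr11:32104921-32105535, lies beside the alpha-globin genes and was picked out after its position and values were seen. Its best 5 kb window, chr11:32217728-32222727, at 115 kb on the far side of the globin genes, had 19, 18 and 22 events against 12.8, a ratio of 4.72 ± 1 (SD, n = 3). It was not called, with an adjusted p of 0.204 by the negative binomial test. In windows of 2.5 kb, 1 at 116 kb was called with 12, 9 and 14 events against 4.06 and an adjusted p of 0.01 in that model. The flanks of the theta-globin viewpoints Hbq1b and Hbq1a held 26 and 21 events against 5.57 and 4.88, and in reverse 38 against 27.8 and 46 against 26.6. Those of Hba-1 and Hba-2 held 1 and 4 against 3.01 and 2.71, and in reverse 5 against 10.2 and 7 against 7.45. The globin copies are near-identical, so events among them may be placed in the wrong copy.

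**Figure D2:**
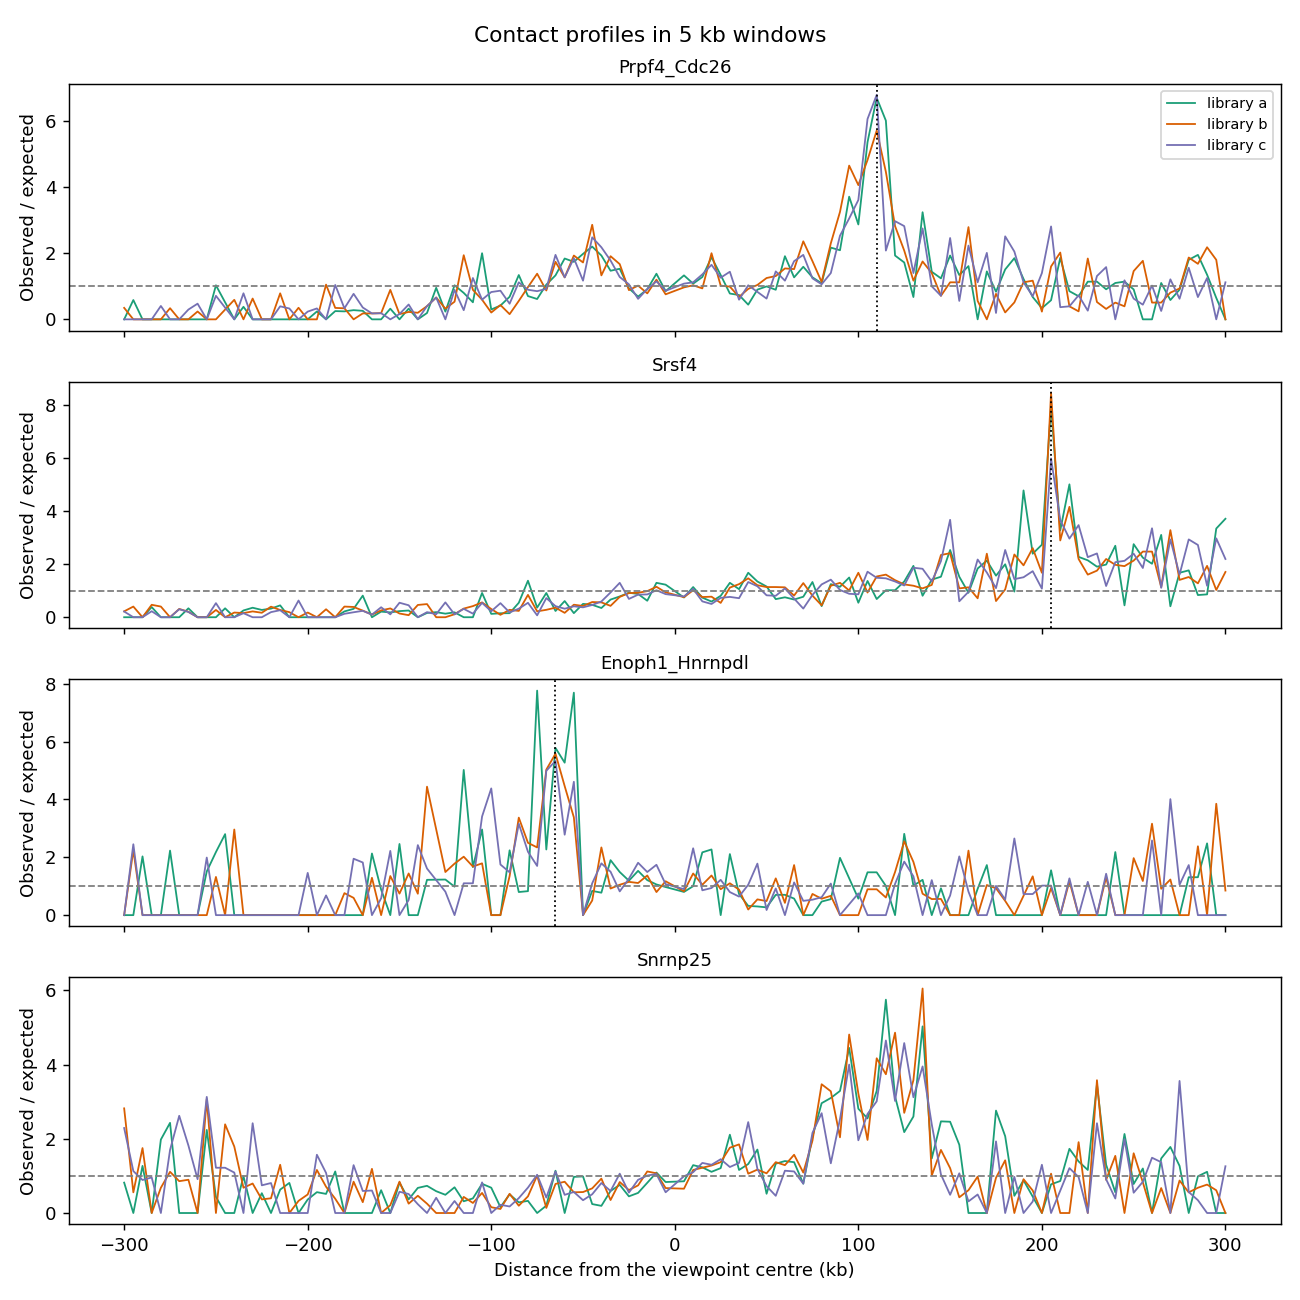
Observed over expected events in windows of 5 kb against distance from the viewpoint centre in kb, for 4 viewpoints and each of the 3 libraries, with dotted lines at called windows. Prpf4 peaks at 110 kb and Srsf4 at 205 kb in each library, and the Snrnp25 profile is raised over a broad stretch around 115 kb.

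Near contacts were summarised as the share of cis events within 1 Mb that lay 2.5 to 100 kb from the viewpoint. The median of the 75 members was 53.3%, against 50.6% in all viewpoints, and 42 members were above the latter. By library the medians were 54.3, 51.1 and 53.2% in the members and 52.3, 50.2 and 50.2% in all. The members' median was the higher in each library, and its own SD was 1.66 (n = 3). By role the median was 59.5% for the 2 U1 members, 57.8% for 20 hnRNP members, 54.5% for 7 tri-snRNP members, 54% for 3 of the minor spliceosome, 53.6% for 9 SR members, 50.1% for 11 Lsm members, 48.4% for 11 U2 members, 48.1% for 6 other Prpf members and 44% for 6 Sm members. The range within the hnRNP group alone was 44.2 to 79.2%. Its 20 members include 3 fragments of the gene Hnrnpf, at 70.5, 79.2 and 73.1%, which raise its median. The roles were not tested against each other.

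The highest near shares were at Hnrnpf, which encodes an hnRNP that binds G-rich RNA. Its fragment Hnrnpf_b had 79.2, 79.8 and 78.6% in libraries a, b and c, and Hnrnpf_c had 79.2, 70.7 and 71.2%. Prpf39, of a factor associated with the U1 snRNP, had 70.8, 69.5 and 71.5%. The lowest shares were at Snrpe with 33.4, 36.8 and 37.7%, Snrpf with 42.7, 42 and 37.9%, and Prpf3, of the tri-snRNP, with 41, 40.6 and 40.5%.  Sf3b1 had 67.8, 63.2 and 63.1% and U2af1 45.8, 42.4 and 43.2%. Hnrnpa1 had 70.5% in the sum, with only 29.2% of its tested fragments on its higher-coordinate side.

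**Figure D3:**
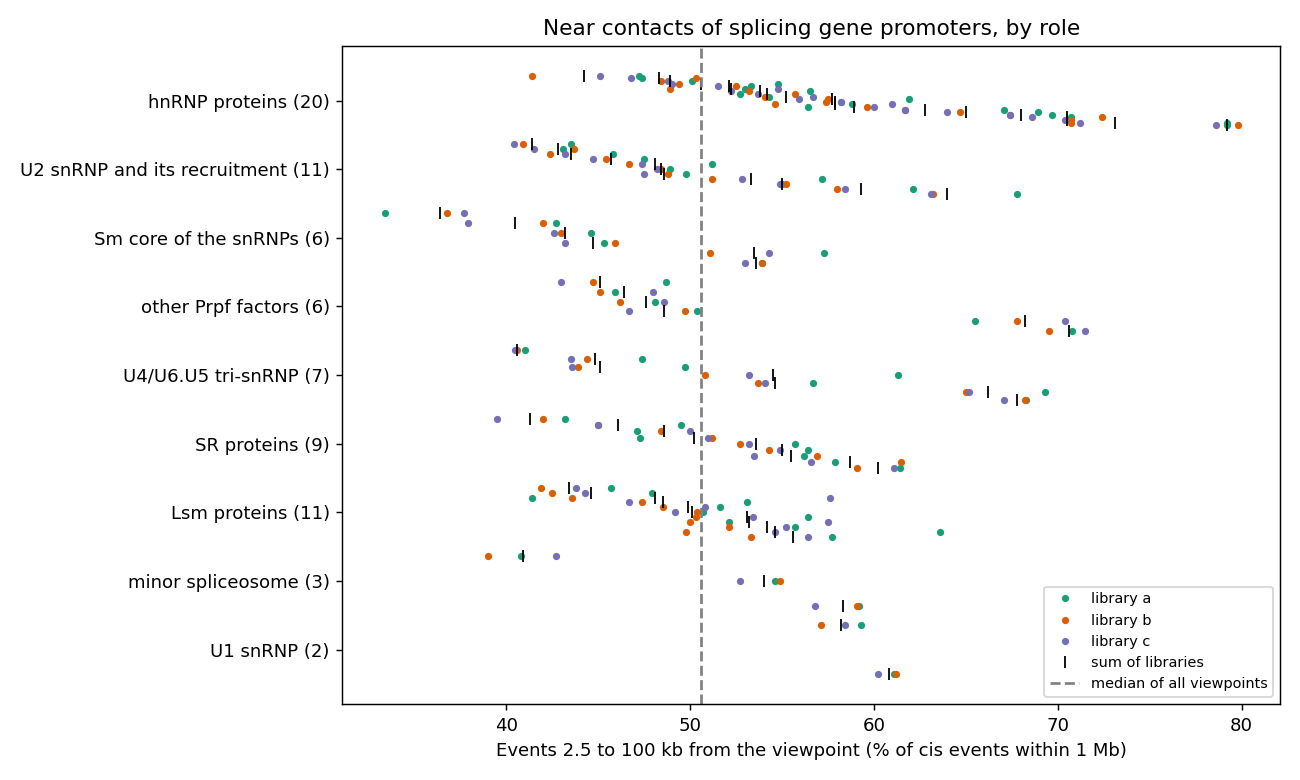
Share of cis events within 1 Mb that lay 2.5 to 100 kb away, in percent, for the 75 members by role, with points for each library and bars for their sum. The dashed line is the median of all viewpoints, 50.6%, and the 3 Hnrnpf fragments lie at 68.6% or more in each library.

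Over 10 kb to 1 Mb the members' events fell with distance with a slope of −0.933 ± 0.0194 (SD, n = 3) on log scales, and those of all viewpoints with −0.907 ± 0.019. By library the slopes were −0.955, −0.918 and −0.926 in the members and −0.929, −0.896 and −0.896 in all, so the members' was steeper in each. These SDs are between libraries of the same viewpoints. They do not measure the spread among viewpoints, and the difference was not tested. The share of a member's cis events within 1 Mb ran from 28.1% at Lsm6 to 72.9% at Sf3a2, with a median of 42.2%, against 43.9% in all.

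Contacts could lie mostly to one side. The larger side held a median of 59.9% of events from 10 kb to 1 Mb, against 57.6% in all viewpoints, and 46 of 75 members were above the latter. In libraries a, b and c it was 60.8, 60.1 and 59.8%, against 58, 57.6 and 57.7%. The most one-sided were Hnrnpa0 with 79.6, 81.2 and 81.7% on its higher-coordinate side, Srsf4 with 80.7, 80.4 and 78.6% and Srsf6 with 81.1, 80.1 and 78.2%. The most even were Hnrnpc with 53.6, 50.8 and 47.8%, Prpf4b with 49.3, 49.9 and 50.1% and Hnrnpa1 with 52.2, 49.6 and 49.6%. Only 29.2% of the tested fragments of Hnrnpa1 lay on that side, against 50.1% for Hnrnpc and 49.8% for Prpf4b, so its events per fragment were not even. Relative to transcription there was no shared side: 42 of 75 members had more events upstream, with a median of 51.3%. Hnrnpa0 pointed upstream of its gene, Srsf4 and Srsf6 downstream.

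**Figure D4:**
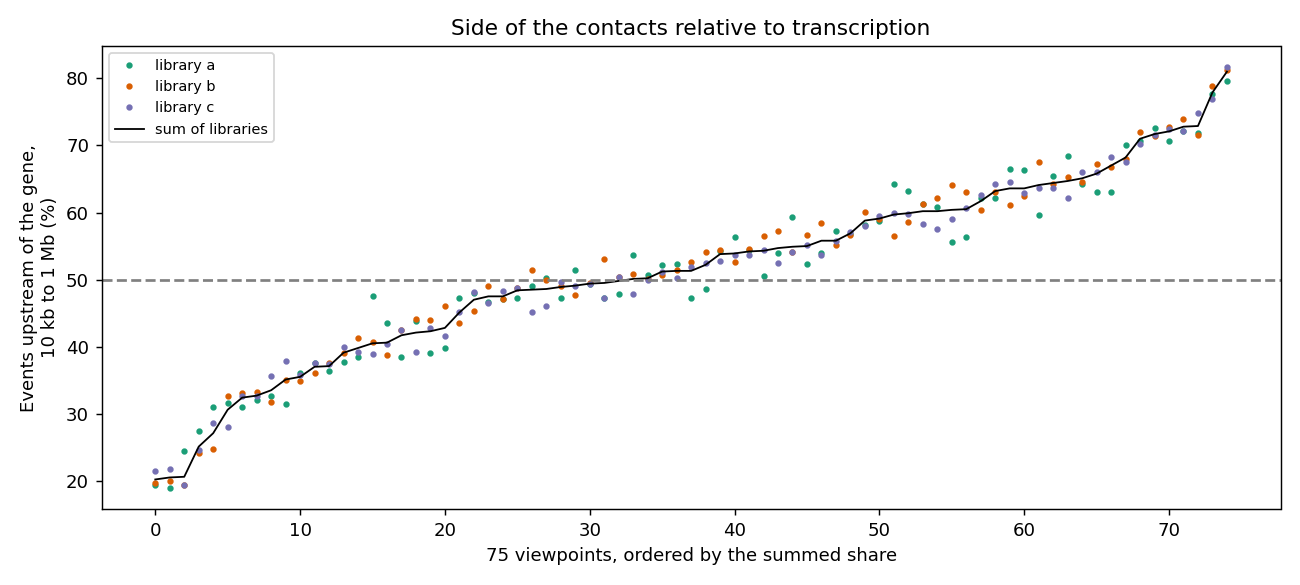
Share of events from 10 kb to 1 Mb that lay upstream of the gene, in percent, for the 75 members in order of the summed share, with a point for each library and a line for the sum. The order crosses 50% near its middle, and the ends hold at 20.2% for Srsf4 and 81% for Hnrnpa0.

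Fragments 1 or 2 places from other captured promoters within 1 Mb were contacted above expectation. Summed over 1085 pairs the ratio was 1.47 ± 0.0269 (SD, n = 3) for the members and 1.39 ± 0.0122 for all 91204 pairs. It exceeded 1 in 70 of 75 members (93.3%) and in 86% of 6610 viewpoints. From 2.5 to 10 kb it was 0.795 in the members and 0.765 in all, and from 50 to 200 kb it was 1.76 against 1.48, with no test made. There the libraries of the members gave 1.84, 1.75 and 1.73. From 500 kb to 1 Mb it was 2.09 against 2.11. Of the 98 pairs with at least 10 expected events, 66 were above 1 and 2 reached 3, which were Hnrnpa0 with Idnk, a gluconate kinase gene, at 60 events against 16.7, and Hnrnph2 with Zmat1 at 41 against 13. In reverse these had 16 against 10.5 and 6 against 11.2. Probes enrich both ends of such pairs, so the viewpoint fragments themselves were left out.

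**Figure D5:**
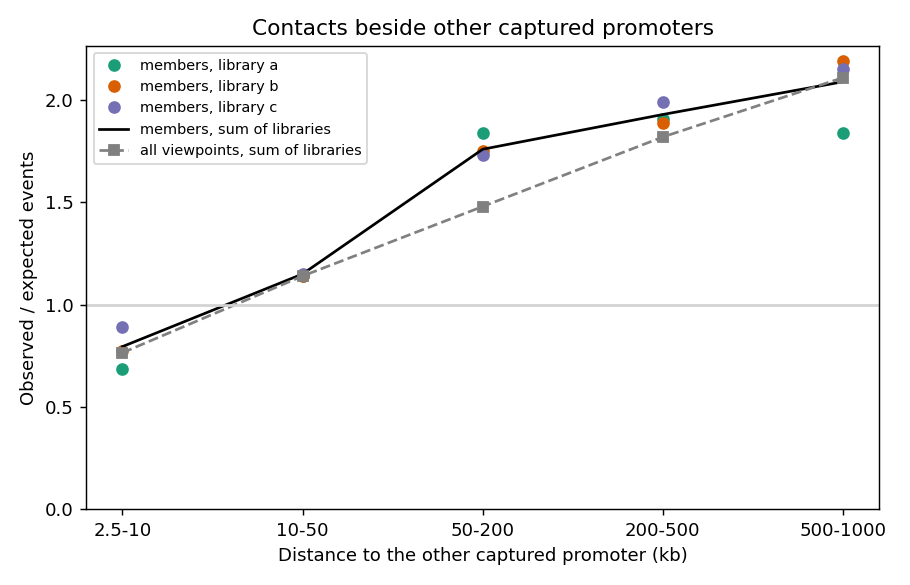
Observed over expected events at fragments beside other captured promoters, by distance in kb, with points for each library of the members, a solid line for their sum and a dashed line for all viewpoints. The lines lie together up to 50 kb and are farthest apart from 50 to 200 kb, at 1.76 and 1.48.

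Within 1 Mb of each other lay 10 pairs of members. Their flanks had a ratio of 1.61 in the sum, and 1.92, 1.46 and 1.57 in libraries a, b and c, over 15 measured directions. Most of the summed events joined fragments of the same gene, Hnrnpf or Srsf11, which lie at most 10.8 kb apart. Each of those directions had 25 to 37 events, and every other direction had 21 or fewer. The pooled ratio therefore mainly describes short distances within a gene, and it was not compared with all viewpoints at like distance. Hnrnpdl to Hnrnpd, 60 kb apart, had 5, 4 and 4 events against 3.17, and 11 against 6.26 in reverse. Hnrnpf_b to Hnrnpf_c had 11, 12 and 14 against 12.4, with 25 against 22.9 in reverse, and Hnrnpf_a to Hnrnpf_c 34 against 18.1, with 34 against 20.4 in reverse. Hnrnpf_a and Hnrnpf_b, 0.961 kb apart, were too close to measure. Sf3a2 to Lsm7, 56.8 kb apart, had 21 against 13.2 and 4 against 4.93 in reverse. Srsf11_Lrrc40 to Srsf11, 4.74 kb apart, had 29 against 30.7. Hnrnpk to Hnrnpa0, 274 kb apart, had 6 against 1.56, with 1 against 1.65 in reverse. Srsf7 to Hnrnpll at 145 kb had 4 against 2.92, Prpf3 to Sf3b4 at 317 kb 4 against 1.31, and Srsf10 with Hnrnpr at 454 kb 2 against 0.73 and 1 against 0.333. The counts under 10 leave wide counting error on their ratios. Over 190 windows the ratios of Hnrnpf_b and Hnrnpf_c had a Pearson r of 0.645 and a Spearman rho of 0.412, and those of Hnrnpf_a and Hnrnpf_b 0.547 and 0.42. Pearson r was 0.621 for Hnrnpf_a with Hnrnpf_c, 0.475 for Hnrnpd with Hnrnpdl and 0.263 for Sf3a2 with Lsm7, and no unrelated viewpoints were compared. These are descriptions across windows that share libraries and neighbourhood.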

How the data were processed

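NuTi Capture-C was carried out on 3 libraries of 1 group. The submitters' notes name Trim Galore, Bowtie and build mm9, with no versions. The authors deposited a signal, the reporters of each DpnII fragment per 100000 cis reporters of a viewpoint. Its columns carry no sample names, so libraries are called a, b and c by column order. Whole events were worked back from the smallest value of each viewpoint and library (100% whole within 0.01), and totals were 18230099, 34428035 and 34233560 cis events. Nothing in the sources ties libraries to separate mice, so the spread between them may be technical. The p-values rest on summed events and on the spread between windows of like distance, and the libraries enter only through the demand that each exceeds expectation. Fragments were placed on mm9, viewpoint fragments left out, and each window had at least 3 fragments. The dispersion was fitted by maximum likelihood in each of 50 distance bins (scipy 1.17.1). Single fragments used the dispersion by moments. The members and lists were chosen with earlier results of these data known. Named genes were those with the most called windows, the extremes of near share, side share and depth, pairs within 1 Mb, and Sf3b1, Srsf2 and U2af1. The call was tested on simulated data over the same 2631420 windows, where it found 10 of 50 windows raised 5-fold, 33 of 50 raised 10-fold and 45 of 50 raised 20-fold, with 8 calls elsewhere. The simulated counts followed the model of the test, with the same dispersion at every distance. In the data the fitted dispersions ran from 0.103 to 0.735. Raised windows had a minimum expected count that the called windows of Lsm6, Snrpf and Snrpd1 did not reach. The simulation therefore does not describe those calls. Alternatives were other window sizes, dispersions, expectations, depth minimums, distances and left-out libraries.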

Additional observations from a re-analysis of the deposited data

How the results depend on the processing

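The members had 11 called windows in the report, and under other settings 6 with windows of 10 kb (0.0405% of members' windows against 0.0395% of all), 8 with windows of 2.5 kb (0.0147 against 0.0178%), 6 with the dispersion by moments (0.0204 against 0.023%), 3 with expectation from distance alone (0.0102 against 0.0181%), 12 with windows sharing a word left out (0.0418 against 0.0278%), 6 with at least 5000 events per viewpoint, where fewer members were tested (0.0321 against 0.0427%), and 1560 with Poisson counts (5.31 against 6.03%). Within 5 kb of a call of the report lay calls for 6, 5, 6, 3, 11 and 5 of the 11 windows in the first 6 of these settings. Leaving out a library gave 5 to 8 (a left out, 8, or 0.0273 against 0.0266%; b left out, 5; c left out, 7), and the cause was not tested. Called fragments went from 0 to 5 when the dispersion was fitted without the top 0.1% of fragments (0.00154 against 0.00346% of all) and stayed at 0 without any library. Prpf4 had a called window in every listed window setting but the dispersion by moments. Median depth was 3722 to 4865.5 events with a library left out, since fewer libraries were summed. The near share was 39.1% from 2.5 to 50 kb (37.7% in all viewpoints), 39.3% from 10 to 100 kb (36.7%), and 52.1 to 54.1% with a library left out. The slope was −0.906 without scaling (−0.851 in all) and −0.937 to −0.922 with a library left out. The larger side share was 61.3% from 10 to 200 kb (57.2% in all), 60.6% from 50 kb to 1 Mb (59.8%), 58.7% with at least 5000 events (57.5%), and 59.2 to 59.9% with a library left out. The flank ratio was 1.18 at 1 place only, 1.61 at 1 to 4 places, 1.72 as the median of members, and 1.47 to 1.49 with a library left out, and the pair ratio was 1.52 to 1.7. Counting b and c as 1 sample gave ratios of 6.48 ± 0.32 for the Prpf4 window and 7.61 ± 0.533 for that of Srsf4 (SD, n = 2). This count, chosen after seeing the data, moved the ratio of none of the 11 windows by more than its SD. No paired analysis was possible because there is 1 group.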
